A study of Mus musculus with 25 samples.

Results

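The genes described here are 9 transcription factors of the ETS family, Ets1, Ets2, Ehf, Elf3, Elf5, Elk3, Etv4, Etv5 and Etv6, taken by symbol from a count table of 24061 mouse genes. All 9 had a row in the table, and all 9 passed the filter on low counts in every comparison. ETS factors share a DNA-binding domain that recognises sites around the core GGAA, and differ in their partners and in how signals reach them. Ets1, Ets2, Elk3, Etv4 and Etv5 are known for acting downstream of Ras and the kinase ERK, whereas Ehf, Elf3 and Elf5 are largely restricted to epithelia, where they are linked to differentiation. Etv6 is known as a repressor.

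RNA was counted in 21 libraries of sorted skin cells from female B6 mice, in 3 sets named CL, BK and DS, and open chromatin was mapped by ATAC-seq in 4 pooled samples of the mixed CD1/B6 strain. CL held 2 libraries each of the wounded HFSC lineage, wounded EpdSC, HFSC (hair follicle stem cells of the bulge) and EpdSC (epidermal stem cells), all lineage negative with high integrin alpha 6. Wounded cells were split by YFP, switched on by Sox9CreER at R26-YFP. The HFSC lineage was YFP+ and the EpdSC were YFP-, while unwounded HFSC were CD34+ Sca1- and EpdSC CD34- Sca1+. The wound comparisons in CL therefore changed the sort together with the wound, and whether the unwounded mice carried the Cre and reporter alleles is not given in the sources used here. BK held 1 library of wounded EpdSC, sorted on integrin alpha 6 without YFP, and 2 each of HFSC and EpdSC, labelled 1 and 2. The count column of that wound library carries an extra tag in its header. Whether its sort matched that of the unwounded EpdSC was not checked here. DS held GFP+ cells of grafted tumours of the genotypes TbrKO, HRas TbrKO and HRas, with 1 library of high and 1 of low integrin alpha 6 each, and HFSC and EpdSC labelled Tbr, 1 library of each. The labels do not spell out which gene Tbr stands for, so that deletion was not checked here, and they do not say whether the Tbr skin carried it. The skin cells for RNA came from mice of postnatal day 60 and the HFSC and EpdSC for ATAC-seq from day 50. The protocol text also names a wound biopsy without tying it to samples, and the unwounded samples were taken as unwounded from their titles and cell types. The ATAC tumour sample held tumour-initiating cells of grafted, HRas-induced squamous cell carcinoma, GFP+ with high integrins alpha 6 and beta 1, and the ATAC wound sample held integrin alpha 6 and Sca1 positive cells.

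Library totals ranged from 14216472 to 36425082 counts. The basal keratin Krt5 was at 10490 CPM (counts scaled to library size, TMM normalised over all 21 libraries) or more in each library. Cd34, the bulge marker used in the sort, was at 429.5 to 3098 CPM in the 5 HFSC libraries and at 61.6 CPM or less in the others. Leukocyte markers summed to 3782 and 2983 CPM in the wounded EpdSC libraries of CL, 24.4 to 30.4 CPM in the other 3 wound libraries, 188 to 1475 CPM in the 6 tumour libraries and 21.5 to 108.7 CPM in the 10 libraries of unwounded cells. Fibroblast markers summed to 1476 to 13610 CPM in the tumours and to at most 1667 CPM elsewhere. Genes that tissue dissociation is known to induce summed to 786 to 1420 CPM in the 4 wound libraries of CL, against 24010 to 46360 CPM in the 4 unwounded ones. The Hras transcript was lower in TbrKO than in HRas-bearing tumours, at 138 and 154 CPM against 214 to 276 CPM (log2 fold change -0.72 ± 0.17 (SE), edgeR adjusted p = 0.0254). In bulk libraries, fewer cells of a type and less RNA per cell cannot be told apart.

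The members differed widely in how far they ranged over the 21 libraries. Etv6 moved least, with a highest level 2.37 times its lowest, followed by Ets2 with 4.255 times (levels of 162 to 691 CPM). Etv5, Ets1, Etv4 and Elk3 spanned 20.05, 19.5, 29.8 and 88.0 times. The 3 epithelial members spanned most, with 373 times for Ehf, 383 times for Elf5 and 585 times for Elf3. Each of those 3 was lowest in a BK HFSC library and highest in a tumour library, and the lowest Elf5 value rests on 3 counts.

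**Figure D1:**
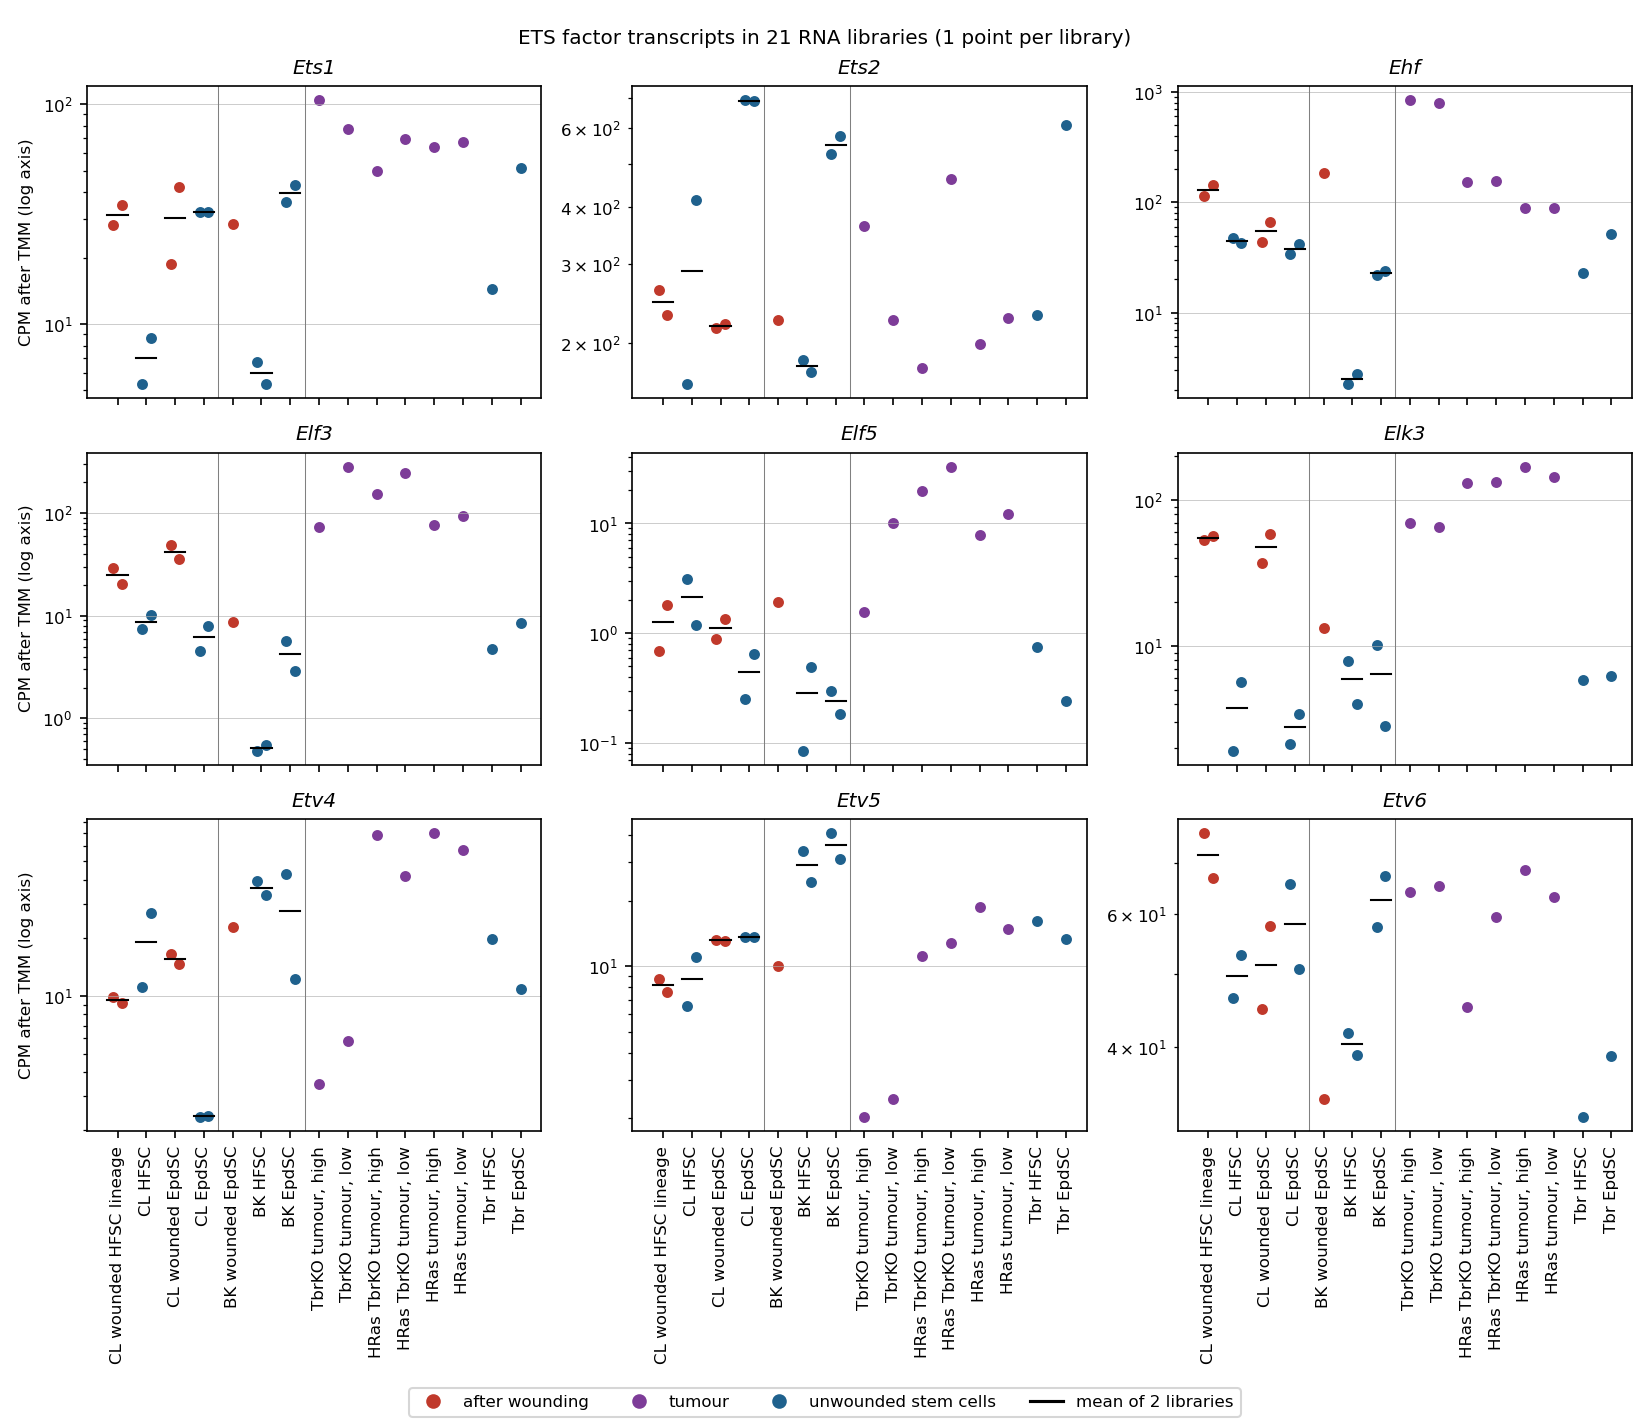
CPM of each member in the 21 libraries on a log axis, 1 point per library, with a bar at the mean where a group has 2 libraries. Vertical lines separate the sets CL, BK and DS. Elf3 and Elk3 are higher in all 6 tumour libraries than in the 15 others, and Ehf stands highest in the TbrKO tumours at 843 and 799 CPM.

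Between wounded and unwounded cells of CL, members were called in about the share in which all genes were. In the wounded HFSC lineage 4 of 9 were higher than in HFSC and 0 lower, while edgeR called 46.1% of all genes, 21.4% higher and 24.7% lower, at an adjusted p under 0.05, the threshold used throughout. In wounded EpdSC 3 of 9 were higher and 1 lower, against 58.4% of all genes, 30.2% higher and 28.2% lower. The median log2 fold change of the 9 was 0.52 and 0.54 in these comparisons, and that of all genes tested -0.10 and -0.04. Only Elf3 and Elk3 were called higher in both. The BK comparison of wounded EpdSC with EpdSC, which rests on 1 wound library, called 1 of 9 higher, Ehf, and 0 lower, against 7.97% of all genes, 1.77% higher and 6.21% lower. Leaving out 1 of its EpdSC libraries leaves 1 library against 1, with the spread taken from the 2 HFSC libraries alone, so values of that comparison without EpdSC 1 or EpdSC 2 are given below as values with no call.

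Between HFSC and EpdSC the 2 replicated sets called different members apart from Ets1. In CL 1 of 9 was higher and 1 lower, against 10.8% of all genes, 7.19% higher and 3.63% lower. In BK 0 of 9 were higher and 4 lower, against 14.4% of all genes, 7.91% higher and 6.47% lower. Leaving out 1 HFSC or EpdSC library of BK leaves 1 in that group, with the spread taken from the 2 libraries of the other lineage alone. A call gained only in such a fit is given below as a value with no call. The dissociation-induced genes also differed between the lineages in BK, at 6447 and 4710 CPM in HFSC and 28390 and 33960 CPM in EpdSC, whereas in CL they summed to 24010 and 40580 CPM in HFSC and 46360 and 41860 CPM in EpdSC. Their part in the lineage differences of the members, Ets2, Ehf and Elf3 in BK among them, was not tested. The median of the 9 was 0.24 in CL and -0.64 in BK, with -0.02 and -0.03 for all genes. No test of CL against BK was run for this difference.

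In the tumours, 6 of 9 members were higher in the 4 HRas-bearing libraries (HRas and HRas TbrKO) than in the 2 Tbr skin stem cell libraries and 0 lower, against 52.3% of all genes, 27.0% higher and 25.4% lower. In TbrKO tumours 5 were higher and 2 lower than in the same 2 skin libraries, against 24.5% of all genes, 13.9% higher and 10.6% lower. Between TbrKO and HRas-bearing tumours 1 was higher and 4 lower, against 42.1% of all genes, 21.1% higher and the rest lower. These comparisons share libraries, so their values are given side by side for each member and not compared further. Each tumour genotype and gate, and each Tbr lineage, was a single library. In the comparisons with Tbr skin, gates, HRas-bearing genotypes and lineages were pooled within a class, so their differences served as the spread. Between HRas TbrKO and HRas tumours edgeR called 0 of 9 members and 0 of 14519 genes (1683 with an unadjusted p under 0.05), and DESeq2 called 397 genes, among them Ehf. Between high and low integrin alpha 6 it called 0 of 9 members, against 3.07% of all genes, 0.124% higher and 2.95% lower, and 2 members had an unadjusted p under 0.05, Elf3 (log2 fold change -0.94) and Elf5 (-1.25). Both were called lower by DESeq2, at -0.95 and -1.29. In the same comparison 6 of 8 leukocyte markers tested and 6 of 7 fibroblast markers were lower in the high gate, and their part in these values was not tested.

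Ets1 and Ets2, which carry a Pointed domain and are activated by phosphorylation through ERK, were both low in HFSC. Ets1 stood at 5.355 and 8.70 CPM in HFSC and 32.4 and 32.3 CPM in EpdSC of CL. In BK it was at 6.72 and 5.35 CPM in HFSC and 36.0 and 43.1 CPM in EpdSC, and in the Tbr libraries at 14.45 CPM in HFSC and 51.25 CPM in EpdSC. Within each set every HFSC library was below every EpdSC library. The log2 fold change of HFSC over EpdSC was -2.21 ± 0.42 in CL (SE, n = 2 and 2, edgeR adjusted p = 0.0137) and -2.73 ± 0.32 in BK (adjusted p = 0.00573). The CL call was lost without HFSC A (-1.90), EpdSC A or EpdSC B. The BK value stayed within -2.87 to -2.56 under 9 alternatives.

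After wounding, Ets1 was at 28.4 and 34.7 CPM in the HFSC lineage, above both HFSC libraries. The log2 fold change over HFSC was 2.16 ± 0.42 (n = 2 and 2, edgeR adjusted p = 0.00446), and it passed under all 10 alternatives tried. In wounded EpdSC of CL it was at 18.8 and 42.0 CPM, values on either side of both EpdSC libraries, with a fold change over EpdSC of -0.10 ± 0.40 (95% interval -1.02 to 0.82). The 2 wound responses differed by 2.26 ± 0.57 on the log2 scale (edgeR adjusted p = 0.0371, with 15.8% of all genes called in this test, 5.31% higher and 10.5% lower). That call was lost without any 1 of 6 libraries, with adjusted p of 0.0657 and 0.0966 without wounded HFSC lineage A or B, 0.0953 and 0.0586 without HFSC A or B, and 0.122 and 0.114 without EpdSC A or B. The wounded groups themselves differed by 0.05 ± 0.40 (HFSC lineage over EpdSC, 95% interval -0.87 to 0.97).

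In 5 of the 6 tumour libraries Ets1 was higher than in any skin or wound library, at 104.5 and 77.2 CPM in TbrKO and 50.03 to 69.9 CPM in HRas-bearing tumours. Tbr EpdSC, at 51.25 CPM, lay above the lowest of these. Neither tumour class was called against the Tbr skin libraries, where the log2 fold change was 1.43 ± 0.51 for TbrKO (edgeR adjusted p = 0.0736) and 0.93 ± 0.45 for HRas-bearing tumours (adjusted p = 0.117). Without the Tbr EpdSC library the values were 2.64 and 2.13. Those values compare the tumours with Tbr HFSC alone, at 14.45 CPM. TbrKO over HRas-bearing tumours was 0.52 ± 0.19 (adjusted p = 0.0811) and was called without the low HRas TbrKO library (0.66, adjusted p = 0.0438) or the low TbrKO library (0.89, adjusted p = 0.00545).

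Ets2 was the most even member beside Etv6, with its highest levels in EpdSC. It stood at 162 and 414 CPM in HFSC and 691 and 688 CPM in EpdSC of CL, at 183 and 173 CPM in HFSC and 524 and 576 CPM in EpdSC of BK, and at 231 and 608 CPM in Tbr HFSC and EpdSC. No HFSC library reached an EpdSC library. The BK difference of -1.64 ± 0.30 passed (edgeR adjusted p = 0.0188) but not without HFSC 1 (adjusted p = 0.296) or HFSC 2 (adjusted p = 0.317), and the CL difference of -1.26 ± 0.39 did not (adjusted p = 0.0854) but passed without HFSC B (-2.11, adjusted p = 0.00454), with DESeq2 (-1.24, adjusted p = 0.0171) and with no filter on low counts (-1.27, adjusted p = 0.0262).

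Wounded EpdSC of CL had 216.5 and 221 CPM of Ets2, below both EpdSC libraries (log2 fold change -1.67 ± 0.39, edgeR adjusted p = 0.0077). The single wounded EpdSC library of BK had 225 CPM, with a fold change of -1.35 ± 0.38 that did not pass (adjusted p = 0.0723). It was -1.43 without EpdSC 1 and -1.35 without EpdSC 2. The wounded HFSC lineage had 262 and 231 CPM, between its 2 HFSC libraries (-0.24 ± 0.38, adjusted p = 0.628), a difference that was called without HFSC A (-0.76, adjusted p = 0.0315). All 5 wound libraries thus lay within 216.5 to 262 CPM. The genes that dissociation induces were lower in wounded than in unwounded cells of CL, as given above, and their part in the Ets2 value was not tested. Tumour levels of Ets2 were 363 and 226 CPM in TbrKO and 176 to 463 CPM in HRas-bearing libraries, and no tumour comparison called it, except TbrKO over HRas-bearing tumours without the low TbrKO library (0.94, adjusted p = 0.0428).

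The start of Ets2 lay in an ATAC peak in all 4 lists, and its upstream window is shown for that reason. The RefSeq promoter table (GRCm38.p6) matched 6 of the 9 members, Ets2, Elf3, Elf5, Elk3, Etv5 and Etv6. The windows printed here are the 250 bases before the start, read on the gene's strand, with capitals on each match to GGAA on either strand (TTCC on the printed strand). Such matches are common, since 93.4% of 32817 windows of this length hold at least 1, with a median of 3. The window of Ets2 (chr16:95702157-95702406, plus strand) held 1.
Ets2: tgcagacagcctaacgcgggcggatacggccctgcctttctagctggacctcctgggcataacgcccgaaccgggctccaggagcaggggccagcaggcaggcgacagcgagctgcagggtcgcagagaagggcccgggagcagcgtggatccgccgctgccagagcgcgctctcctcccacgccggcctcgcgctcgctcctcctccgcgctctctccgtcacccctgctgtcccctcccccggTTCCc

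The epithelial members Ehf, Elf3 and Elf5 were all higher in tumours than in skin stem cells. Ehf, a factor of simple and stratified epithelia, was at 843 and 799 CPM in TbrKO tumours, 153 and 157 CPM in HRas TbrKO tumours and 89.4 and 89.1 CPM in HRas tumours, against 22.8 and 51.5 CPM in Tbr HFSC and EpdSC. The 3 genotypes did not overlap, and each exceeded both skin libraries. TbrKO exceeded HRas-bearing tumours by 2.79 ± 0.12 on the log2 scale (n = 2 against 4 libraries, edgeR adjusted p = 0.00093), a value that stayed within 2.77 to 2.86 under 9 alternatives. Over the Tbr skin libraries the log2 fold change was 4.44 ± 0.51 for TbrKO (adjusted p = 0.00242) and 1.71 ± 0.42 for HRas-bearing tumours (adjusted p = 0.0112). The second was at adjusted p = 0.0508 without Tbr HFSC. HRas TbrKO over HRas was 0.80 ± 0.15 (edgeR adjusted p = 0.234), called only by DESeq2 (0.81, adjusted p = 0.000517).

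Wounding went with higher Ehf in 2 of 3 comparisons. The wounded HFSC lineage had 114 and 145 CPM and HFSC 47.4 and 42.8 CPM (log2 fold change 1.52 ± 0.27, n = 2 and 2, edgeR adjusted p = 0.0029). In BK the wounded EpdSC library had 183 CPM and EpdSC 21.9 and 23.9 CPM (2.94 ± 0.34, adjusted p = 0.0445). In CL wounded EpdSC had 44.2 and 66.8 CPM and EpdSC 34.1 and 41.9 CPM, groups that did not overlap but whose difference of 0.54 ± 0.26 was not called (adjusted p = 0.112). It was called without wounded EpdSC A (0.83, adjusted p = 0.016), by DESeq2 (0.64, adjusted p = 0.0397) and with upper-quartile scaling (0.69, adjusted p = 0.0371).

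Those 2 wounded EpdSC libraries are the ones with 3782 and 2983 CPM of leukocyte markers, and their part in the lower Ehf was not tested. The wounded HFSC lineage exceeded wounded EpdSC by 1.22 ± 0.26 (edgeR adjusted p = 0.0256, 19.2% of all genes called, 6.80% higher and 12.4% lower), Ehf being the 1 member of 9 called there. The call was lost without wounded HFSC lineage A (adjusted p = 0.0664) or B (0.172), without wounded EpdSC A (0.0579), and when only the 4 libraries compared were fitted (0.0858). The difference of the wound responses was 0.98 ± 0.37 (adjusted p = 0.0992), and 1.35 without wounded EpdSC B (adjusted p = 0.0114). Between unwounded lineages Ehf differed in BK, at 2.26 and 2.805 CPM in HFSC and 21.9 and 23.9 CPM in EpdSC (-3.19 ± 0.32, adjusted p = 0.00401), but was 0.24 ± 0.26 in CL (adjusted p = 0.694).

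Elf3, which is induced in epithelia by inflammatory signals and regulates envelope genes such as Sprr2a, rose after wounding of both lineages in CL. The wounded HFSC lineage had 29.0 and 20.5 CPM and HFSC 7.43 and 10.2 CPM (log2 fold change 1.48 ± 0.34, edgeR adjusted p = 0.00925). This call was lost without wounded HFSC lineage A (1.25, adjusted p = 0.0575) or HFSC A (1.27, adjusted p = 0.0628). Wounded EpdSC had 48.8 and 35.4 CPM and EpdSC 4.57 and 7.97 CPM (2.74 ± 0.36, adjusted p = 0.000564), and this call held under all 10 alternatives. The response was not called as different between lineages (-1.26 ± 0.48, adjusted p = 0.1), except without wounded EpdSC B (-1.45, adjusted p = 0.0451). In BK the wound library had 8.635 CPM, above the 5.63 and 2.88 CPM of EpdSC (0.96 ± 0.56, adjusted p = 0.272, and 1.51 without EpdSC 1 or 0.48 without EpdSC 2).

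In tumours Elf3 was at 73.0 and 284 CPM in the high and low gates of TbrKO, 155 and 245 CPM in those of HRas TbrKO and 76.8 and 93.5 CPM in those of HRas, against 4.80 and 8.52 CPM in Tbr HFSC and EpdSC. The lowest tumour library thus stood above every skin and wound library. Log2 fold changes over the Tbr skin libraries were 4.72 ± 0.84 for TbrKO (edgeR adjusted p = 0.00944) and 4.40 ± 0.80 for HRas-bearing tumours (adjusted p = 0.00334). Levels were higher in the low than in the high gate of each genotype. TbrKO over HRas-bearing tumours was 0.22 ± 0.37 (adjusted p = 0.653), a value set by which TbrKO gate was in the fit, at 0.94 without the high gate (adjusted p = 0.00422) and -0.57 without the low gate (adjusted p = 0.0358).

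Unwounded HFSC of BK had 0.486 and 0.549 CPM of Elf3 and EpdSC 5.63 and 2.88 CPM, a difference of -3.04 ± 0.53 (edgeR adjusted p = 0.0156) that was lost without HFSC 1 (adjusted p = 0.0548). In CL the difference was 0.49 ± 0.34 (adjusted p = 0.485). The Elf3 start lay in a peak of the tumour, wound and HFSC lists and in none of the EpdSC list. The window before it (chr1:135258473-135258722, minus strand) is shown because it adjoins a start open in 3 of the 4 lists, and it held 4 matches to GGAA.
Elf3: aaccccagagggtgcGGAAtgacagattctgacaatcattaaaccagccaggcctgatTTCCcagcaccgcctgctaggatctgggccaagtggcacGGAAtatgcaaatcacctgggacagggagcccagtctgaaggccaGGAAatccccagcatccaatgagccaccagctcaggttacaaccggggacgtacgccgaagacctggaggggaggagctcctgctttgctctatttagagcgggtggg

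Elf5, known for its role in mammary and placental epithelium, was scarce outside tumours. It was at 0.0858 to 3.11 CPM in the 15 other libraries, at 1.55 and 10.01 CPM in the high and low gates of TbrKO, 19.8 and 32.9 CPM in those of HRas TbrKO and 7.86 and 12.3 CPM in those of HRas. The high TbrKO library was within the range of the skin and wound libraries, and the other 5 were above it. HRas-bearing tumours exceeded Tbr skin by 5.24 ± 1.12 on the log2 scale (edgeR adjusted p = 0.00643).

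TbrKO exceeded Tbr skin in Elf5 by 3.58 ± 1.10 (edgeR adjusted p = 0.0492), which was lost without the low TbrKO library (1.68, adjusted p = 0.3), Tbr HFSC (adjusted p = 0.0782) or Tbr EpdSC (adjusted p = 0.183) and with upper-quartile scaling (adjusted p = 0.0545). TbrKO was below HRas-bearing tumours (log2 fold change -1.83 ± 0.52, adjusted p = 0.0395), which was lost without the high HRas (adjusted p = 0.081), high HRas TbrKO (adjusted p = 0.0883) or low HRas TbrKO library (adjusted p = 0.061). Its size depended on the TbrKO gate in the fit, at -0.97 without the high and -2.99 without the low TbrKO library. In the gate comparison Elf5 was at a log2 fold change of -0.63 without the high and -0.67 without the low TbrKO library. With the genotype in the model, both values rest on the same 4 HRas-bearing libraries. No wound or lineage comparison called Elf5.

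**Figure D2:**
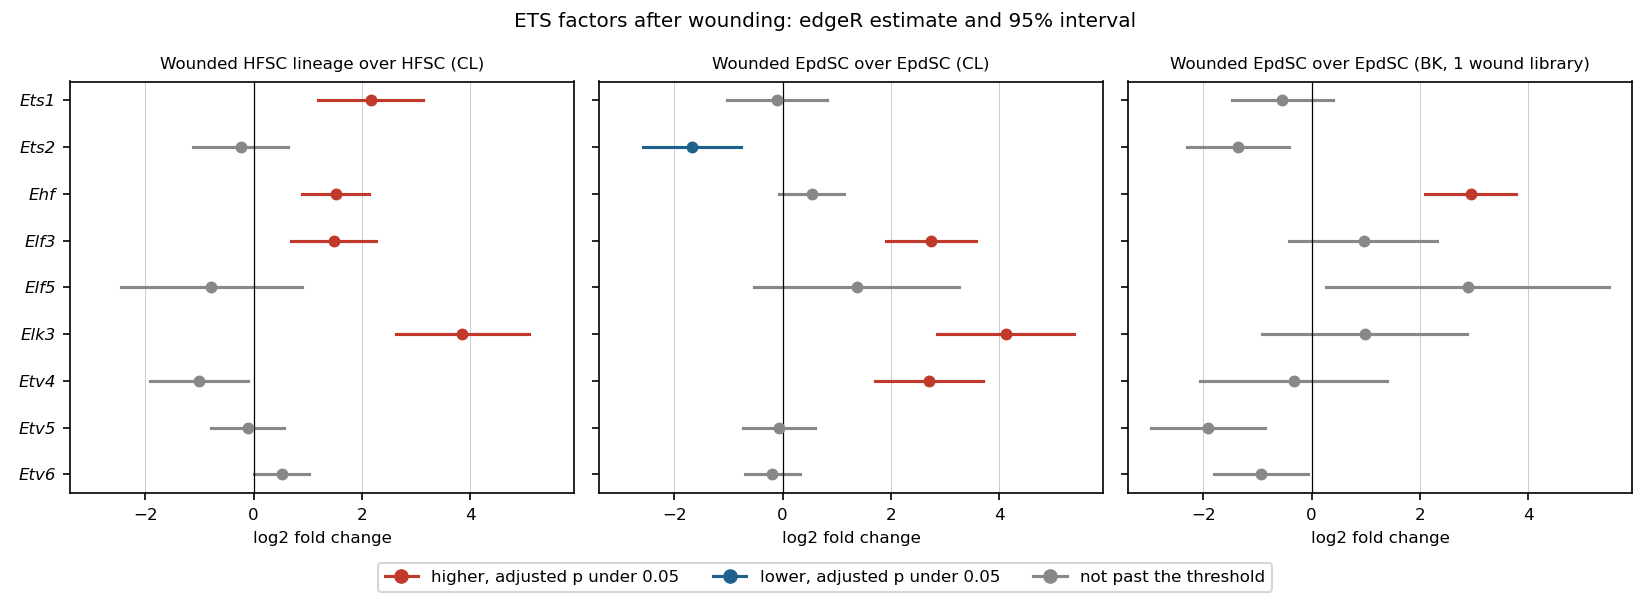
Log2 fold change of each member after wounding with its 95% interval, from the edgeR fits of CL (n = 2 libraries per group) and BK (1 wound library, 2 EpdSC). Elk3 is called higher in both CL panels, at 3.85 and 4.12, and Ehf is called in the HFSC lineage of CL and in BK.

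Elk3, a ternary complex factor that binds with SRF and turns from repressor to activator on Ras signalling, had the largest wound response of the members in CL. The wounded HFSC lineage had 53.3 and 56.6 CPM and HFSC 1.92 and 5.66 CPM (log2 fold change 3.85 ± 0.53, n = 2 and 2, edgeR adjusted p = 0.000944). Wounded EpdSC had 37.2 and 58.8 CPM and EpdSC 2.14 and 3.41 CPM (4.12 ± 0.55, adjusted p = 0.000608). Both calls held under all 10 alternatives, with ranges of 3.27 to 4.84 and 3.74 to 4.47. The responses of the lineages differed by -0.27 ± 0.69 (95% interval -1.87 to 1.34). The BK wound library had 13.4 CPM, above the 10.1 and 2.83 CPM of its EpdSC libraries, and the fold change of 0.98 ± 0.78 was not called (adjusted p = 0.407). It was 2.17 without EpdSC 1 and 0.27 without EpdSC 2.

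Tumours had still more Elk3, with 130.4 to 169 CPM in HRas-bearing libraries and 69.5 and 65.6 CPM in TbrKO, against 5.86 and 6.23 CPM in Tbr HFSC and EpdSC. No value of the TbrKO tumours overlapped with the HRas-bearing ones, and all 6 exceeded the highest wound library, at 58.8 CPM. Log2 fold changes over Tbr skin were 3.46 ± 0.20 for TbrKO (edgeR adjusted p = 0.000454) and 4.57 ± 0.20 for HRas-bearing tumours (adjusted p = 0.000126). TbrKO was below HRas-bearing tumours (-1.10 ± 0.13, adjusted p = 0.00433). These 3 calls held under every alternative tried.

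Elk3 is also a gene of endothelium, and 7 endothelial markers (Pecam1, Cdh5, Kdr, Tek, Emcn, Tie1, Erg) were therefore summed in each library. They came to 59.1 and 60.3 CPM in TbrKO and 116 to 264 CPM in HRas-bearing tumours, with 0 markers at 0 counts, and to 2.12 and 1.285 CPM in Tbr HFSC and EpdSC. Their part in the tumour values was not tested. In the wounded HFSC lineage, where Elk3 was at 53.3 and 56.6 CPM, the same markers summed to 5.96 and 6.25 CPM, with Kdr, Emcn and Erg at 0 in both libraries, against 1.065 and 4.58 CPM in HFSC. Pecam1 (3.99, edgeR adjusted p = 0.000543) and Tie1 (4.55, adjusted p = 0.009) were called higher there. Kdr (-6.64, adjusted p = 0.0467) and Tek (-6.01, adjusted p = 0.00481) were called lower. In wounded EpdSC of CL the 7 markers summed to 20.7 and 15.65 CPM with 0 markers at 0 counts, against 0.670 and 0.514 CPM in EpdSC. Their part in the wound values of Elk3 was not tested either.

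The window before the Elk3 start (chr10:93311160-93311409, minus strand) is shown because the start was covered by a peak of the HFSC list and of no other. The transcript was low in HFSC and also in EpdSC, whose list had no peak over the start. It held 2 matches to GGAA.
Elk3: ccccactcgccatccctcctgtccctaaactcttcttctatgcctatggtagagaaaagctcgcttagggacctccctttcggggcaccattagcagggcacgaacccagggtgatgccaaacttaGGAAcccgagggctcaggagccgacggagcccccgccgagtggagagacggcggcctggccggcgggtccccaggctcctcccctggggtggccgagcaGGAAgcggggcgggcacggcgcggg

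Etv4 and Etv5, the PEA3-group factors known as transcriptional targets of FGF and ERK signalling, were the members that fell in TbrKO tumours. Etv4 was at 3.47 and 5.81 CPM in TbrKO and 41.9 to 69.8 CPM in HRas-bearing tumours, against 19.6 and 10.85 CPM in Tbr HFSC and EpdSC. The tumour classes lay on opposite sides of the skin libraries. The log2 fold change over Tbr skin was -1.73 ± 0.41 in TbrKO (edgeR adjusted p = 0.0223) and 1.97 ± 0.37 in HRas-bearing tumours (adjusted p = 0.00404), and TbrKO was below HRas-bearing tumours by -3.65 ± 0.37 (adjusted p = 0.00308). The first was lost without the high TbrKO library (-1.39, adjusted p = 0.116) or Tbr HFSC (-1.25, adjusted p = 0.0721). Without the high TbrKO library the log2 fold change of Etv4 between high and low gate was 0.55, a value that rests on the 4 HRas-bearing libraries.

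Etv5 was at 2.03 and 2.45 CPM in TbrKO and 11.2 to 18.8 CPM in HRas-bearing tumours, against 16.1 and 13.3 CPM in Tbr HFSC and EpdSC. TbrKO lay below all 19 other libraries, and the HRas-bearing tumours had values on both sides of the skin. TbrKO was below HRas-bearing tumours by -2.67 ± 0.26 (edgeR adjusted p = 0.00285) and below Tbr skin by -2.73 ± 0.34 (adjusted p = 0.00319). HRas-bearing tumours over skin gave -0.03 ± 0.28 (95% interval -0.67 to 0.61). The drop of Etv5 held under every alternative tried in both comparisons.

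**Figure D3:**
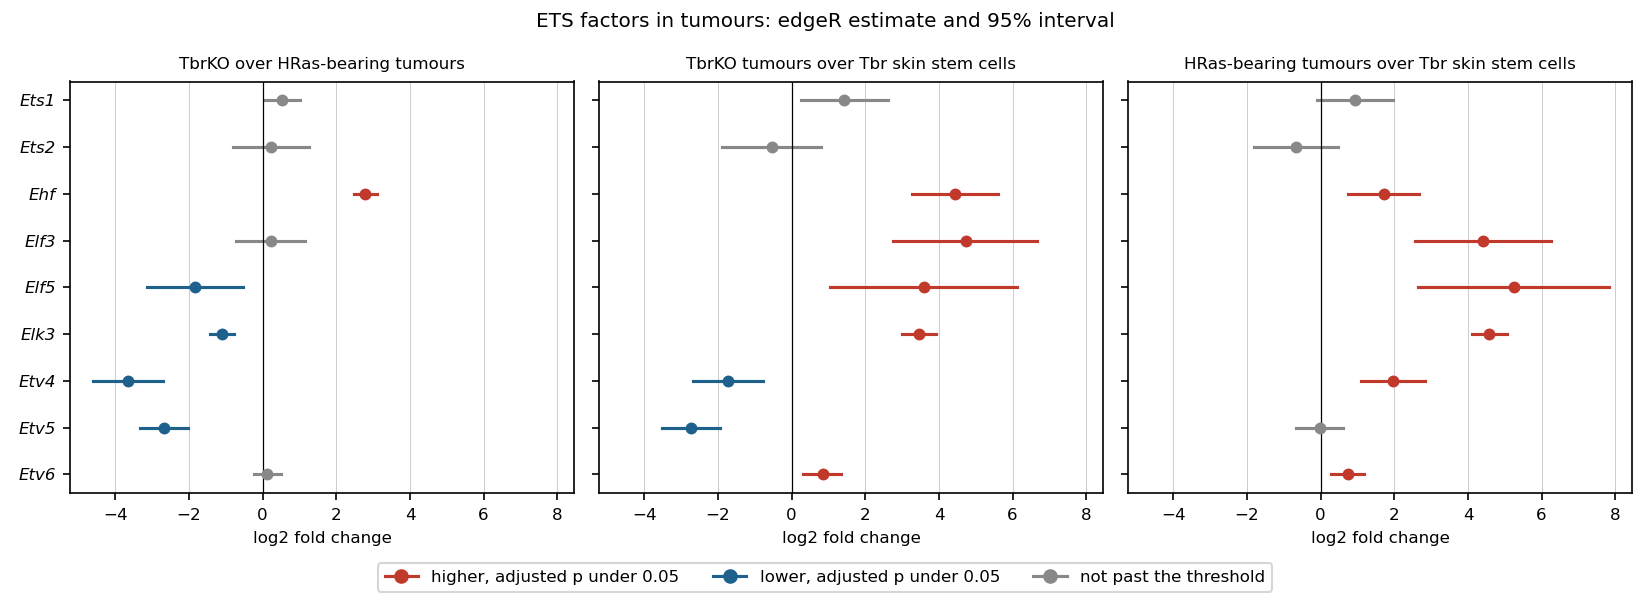
Log2 fold change of each member with its 95% interval between TbrKO (n = 2 libraries), HRas-bearing (n = 4) and Tbr skin stem cell libraries (n = 2), from edgeR. The libraries of a class differ in gate, genotype or lineage and are not replicates of 1 condition. Etv4 is called lower in TbrKO than in either other class, at -3.65 and -1.73, and Ehf higher, at 2.79 and 4.44.

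Etv4 differed between lineages and in their response to wounding within CL. HFSC had 11.1 and 27.0 CPM and EpdSC 2.35 and 2.38 CPM (log2 fold change 3.01 ± 0.43, edgeR adjusted p = 0.00428), a call that was lost without EpdSC A (2.99, adjusted p = 0.0624) or EpdSC B (3.00, adjusted p = 0.0508). Wounded EpdSC had 16.5 and 14.65 CPM, above both EpdSC libraries (2.70 ± 0.43, adjusted p = 0.00142, held under all 10 alternatives). The wounded HFSC lineage had 9.88 and 9.21 CPM, below both HFSC libraries (-1.01 ± 0.39, adjusted p = 0.0679). This fall was called without HFSC A (-1.51, adjusted p = 0.00703), with upper-quartile scaling (-1.12, adjusted p = 0.0464) and with no filter on low counts (-0.99, adjusted p = 0.0496).

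The wound responses of Etv4 differed by -3.71 ± 0.58 (HFSC lineage minus EpdSC, edgeR adjusted p = 0.00619), and the call held under all 13 alternatives. In BK the EpdSC libraries had 43.0 and 12.2 CPM, the wounded EpdSC library 22.9 CPM and HFSC 39.5 and 33.5 CPM. The 2 EpdSC libraries of BK lay on either side of the other 3. The wound difference there was -0.33 ± 0.71 (adjusted p = 0.769), 0.83 without EpdSC 1 and -1.05 without EpdSC 2, so BK gives no direction. HFSC over EpdSC in BK was 0.39 ± 0.57 (edgeR adjusted p = 0.696), and 1.55 without EpdSC 1.

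Etv5 did not follow Etv4 in CL. It was at 8.77 and 7.58 CPM in the wounded HFSC lineage, 13.2 and 13.0 CPM in wounded EpdSC, 6.57 and 10.97 CPM in HFSC and 13.6 CPM in each EpdSC library. The wound differences were -0.11 ± 0.29 (95% interval -0.78 to 0.56) in the HFSC lineage and -0.07 ± 0.29 (-0.73 to 0.60) in EpdSC. In BK the wound library had 9.97 CPM and EpdSC 40.7 and 31.1 CPM, at -1.91 ± 0.43 (edgeR adjusted p = 0.0514). DESeq2 called it (-1.86, adjusted p = 0.00378), as did edgeR with no filter on low counts (-1.94, adjusted p = 0.0323). The value was -1.71 without EpdSC 1 and -2.16 without EpdSC 2.

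Etv6, the repressor also called Tel, was nearly level. It ranged from 32.3 CPM in Tbr HFSC to 76.6 CPM in a library of the wounded HFSC lineage. It was higher in tumours than in Tbr skin, at 64.2 and 65.2 CPM in TbrKO and 45.2 to 68.6 CPM in HRas-bearing tumours, against 32.3 and 38.9 CPM in Tbr HFSC and EpdSC. Log2 fold changes were 0.84 ± 0.22 (edgeR adjusted p = 0.0316) and 0.73 ± 0.20 (adjusted p = 0.0171). The TbrKO call was lost without any 1 of its 4 libraries, with adjusted p of 0.103 and 0.117 without the high or low TbrKO library and 0.0984 and 0.0519 without Tbr HFSC or EpdSC. The HRas-bearing call was lost without Tbr HFSC (adjusted p = 0.0893). Unwounded skin cells of CL and BK had 39.0 to 67.2 CPM, a range above which lay 1 tumour library.

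No wound or lineage comparison called Etv6. Without 1 library it was called in the wounded groups, HFSC lineage over EpdSC (0.69, edgeR adjusted p = 0.0361), and in the difference of responses (0.94, adjusted p = 0.0333), both without wounded EpdSC B. It was also called in the wounded HFSC lineage over HFSC when only the 4 libraries compared were fitted (0.55, edgeR adjusted p = 0.0479). HFSC over EpdSC of BK was -0.64 with all libraries, -0.76 without EpdSC 1 and -0.51 without EpdSC 2. The Etv6 start was covered by a peak in all 4 lists, and its window (chr6:134035450-134035699, plus strand), shown as that of the member with most tumour peaks, held 3 matches to GGAA. None of the 4 windows printed here held the longer ETS sequence CGGAAG, found in 13.6% of all windows, or the AP-1 sequence TGANTCA, found in 6.75%.
Etv6: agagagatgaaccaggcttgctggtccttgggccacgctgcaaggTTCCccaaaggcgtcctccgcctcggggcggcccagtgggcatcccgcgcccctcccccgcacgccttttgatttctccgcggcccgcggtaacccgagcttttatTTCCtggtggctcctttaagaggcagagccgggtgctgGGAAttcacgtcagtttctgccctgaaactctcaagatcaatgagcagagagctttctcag

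The 17 other ETS genes of the mouse listed for this work were mostly either expressed in every library or near silent. Elf1, Elf2, Elf4, Elk1, Elk4, Erf, Etv3 and Gabpa had at least 3.435 CPM in every library, whereas Erg, Etv1, Etv2, Fev, Fli1, Spdef and Spic were at 0 counts in 5 to 17 of 21 libraries. Spi1 (0.321 to 60.1 CPM) and Spib (0 to 4.33 CPM, at 0 in 1 library) belonged to neither class. In the wounded HFSC lineage 0 of 11 tested were higher and 4 lower than in HFSC, against 21.4% and 24.7% of all genes. Their median log2 fold change was -0.75, against -0.10 for all genes. Elk4, a ternary complex factor like Elk3, was among the 4 lower, at 13.35 and 16.15 CPM against 61.3 and 41.8 CPM in HFSC (-1.81 ± 0.33, edgeR adjusted p = 0.00362). The repressors Erf (-1.35, adjusted p = 0.00361) and Etv3 (-1.11, adjusted p = 0.0397) were lower too.

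In wounded EpdSC of CL 2 of 11 other ETS genes were higher and 5 lower than in EpdSC, against 30.2% and 28.2% of all genes. Their median was -0.94, against -0.04 for all genes. Elk4 was at 3.44 and 6.45 CPM against 84.8 and 68.6 CPM in EpdSC (log2 fold change -3.96 ± 0.37, edgeR adjusted p = 0.000134), and Etv3 fell by 2.97 on the log2 scale. The 2 that rose were Spi1, the ETS factor of myeloid and B cells, at 60.1 and 48.5 CPM against 0.88 and 0.45 CPM, and Fli1, a factor of blood and endothelial cells, at 1.49 and 4.97 CPM against 0 counts in both EpdSC libraries. They stood high in the libraries with 3782 and 2983 CPM of leukocyte markers, a list that holds Spi1, and the part of other cells was not tested. In TbrKO against HRas-bearing tumours 5 of 13 were higher, Elk4 (1.18), Etv3 (1.16) and Elf1 (0.76) among them. The 3 lower were Etv1 (-2.99, edgeR adjusted p = 0.0491), Spi1 (-2.22) and Fli1 (-1.46). Of all genes 42.1% were called there, 21.1% higher and the rest lower. In the same comparison 6 of 7 endothelial markers, a list that holds Erg, and 6 of 8 leukocyte markers were lower in TbrKO, and their part was not tested.

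Feedback inhibitors of the ERK pathway are known to be induced by ERK, as Etv4 and Etv5 are, and were listed beside them. In TbrKO against HRas-bearing tumours 3 of 12 were higher and 5 lower, with a median log2 fold change of -0.37 against -0.02 for all genes. Spred3, an inhibitor of Ras signalling, was at 2.40 and 2.25 CPM in TbrKO and 27.3 to 34.3 CPM in HRas-bearing tumours, against 8.35 and 0.924 CPM in Tbr HFSC and EpdSC (TbrKO over HRas-bearing -3.73 ± 0.18, edgeR adjusted p = 0.00093). The receptor tyrosine kinase inhibitor Spry4 (-1.66, adjusted p = 0.0224) and Phlda1 (-1.65, adjusted p = 0.00417) were lower as well. The immediate early gene Egr1 (2.14, adjusted p = 0.00892), Il17rd (1.25, adjusted p = 0.0437) and the ERK phosphatase Dusp4 (1.23, adjusted p = 0.00803) were higher, so the list did not move one way. The dissociation-induced genes, Egr1 among them, summed to 19610 and 12980 CPM in TbrKO and 5108 to 8010 CPM in HRas-bearing tumours, and their part was not tested. Of 19 genes of the ERK pathway and its ETS regulators 5 were higher and 4 lower in TbrKO. Between TbrKO and HRas-bearing tumours 42.1% of all genes were called, 21.1% higher and the rest lower. The 5 higher were led by the receptors Fgfr1 (2.94), Fgfr3 (1.77) and Fgfr2 (1.71). The 4 lower were led by Met (-1.31) and the kinases Map2k2 (-0.83) and Map2k1 (-0.75).

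After wounding in CL 0 of 12 feedback genes were higher and 10 lower in the HFSC lineage (median log2 fold change -2.42), against 24.7% of all genes lower (median -0.10). In wounded EpdSC 1 was higher and 8 lower (median -1.19), against 28.2% of all genes lower (median -0.04). In the BK wound 0 were higher and 2 lower (median -1.24), against 6.21% lower (median -0.06). Dusp6, the cytoplasmic ERK phosphatase, was at 15.9 and 16.9 CPM in the wounded HFSC lineage, against 156 and 298 CPM in HFSC (-3.81 ± 0.35, edgeR adjusted p = 0.000167). In BK Dusp6 was at 163 CPM in wounded EpdSC, against 133 and 84.0 CPM in EpdSC (0.52 ± 0.41, adjusted p = 0.404). The dissociation-induced genes moved the same way in these libraries, and 1 gene, Egr1, is on both lists. Their part was not tested. The transcriptional repressor Cic, which is known to repress Etv4 and Etv5, was lower in the wounded HFSC lineage (-1.97 ± 0.20, edgeR adjusted p = 0.00026) and in wounded EpdSC (-1.62 ± 0.20, adjusted p = 0.000433). Of 10 SRF partners and targets, 1 was higher and 7 lower in the HFSC lineage, against 21.4% and 24.7% of all genes. The same counts held in EpdSC, against 30.2% and 28.2%. Vcl was the higher in both (1.88 and 0.69). Fos was lower (-7.11 and -6.84) and is also on the dissociation list, as is Junb.

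A list of 10 genes known as ETS targets held proteases, the receptor Plaur and the protease inhibitor Timp1. Of these 8 were higher in the wounded HFSC lineage and 0 lower, against 21.4% of all genes higher. In wounded EpdSC of CL 8 were higher and 1 lower, against 30.2% higher. Over Tbr skin 9 were higher in HRas-bearing tumours, against 27.0% of all genes, and 7 in TbrKO tumours, against 13.9%. In the BK wound 0 of 10 were called, against 7.97% of all genes. No median is given, because some of these genes were at 0 counts in an unwounded group. Fibroblast and leukocyte markers were also high in these tumours and in wounded EpdSC of CL, as given above, and their part was not tested. The collagenase Mmp13 was at 267 and 328.5 CPM in the wounded HFSC lineage, against 0.148 and 0.269 CPM in HFSC (10.48 ± 0.69, edgeR adjusted p = 8.57e-05). Between TbrKO and HRas-bearing tumours Mmp1a (-6.84), Mmp1b (-4.10) and Plaur (-1.72) were among 4 lower and Mmp14 (0.70) and Plau (0.58) the 2 higher. Mmp1a and Mmp1b are close paralogs, and how reads were divided between them is not given in the sources used here. Envelope genes known as targets of epithelial ETS factors were listed with the keratin Krt4, and 7 were tested. In the wounded HFSC lineage 4 were higher (median 2.27), against 21.4% of all genes, and in wounded EpdSC 5 (median 2.16), against 30.2%. Sprr1b had log2 fold changes of 9.85 and 10.44 in these comparisons. It was at 515.1 and 538.5 CPM in the wounded HFSC lineage and 660.5 and 766.4 CPM in wounded EpdSC. In wounded EpdSC Lor had 8.66 and 9.76 CPM, against 26.0 and 29.3 CPM in EpdSC. Krt4 had 0.846 and 0.392 CPM there, against 2.095 and 1.93 CPM. Sprr2a1 and Sprr2a2 were at 0 counts in every library and were not tested. In TbrKO against HRas-bearing tumours, where Ehf was higher, 2 of these were higher, Krt4 (1.86) and Lor (1.59). The 3 lower were Ivl (-2.71), Sprr1b (-1.47) and Tgm3 (-1.39). Of all genes 42.1% were called in that comparison, 21.1% higher and the rest lower.

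Across the 21 libraries, which share sets and strain, the profiles of log2(CPM + 1) gave these Pearson correlations as a description. Among members the highest was between Elf3 and Elk3 (r = 0.866), followed by Elf3 and Elf5 (0.823) and Ehf and Elf3 (0.821), and the lowest was between Ehf and Etv5 (-0.827). Etv4 and Etv5 correlated at 0.511. Among 13451 genes with a mean of at least 1 CPM, those most like Elk3 were Anxa3 (0.972) and Tnfrsf23 (0.971), and those most like Elf5 were Crnn (0.946), which encodes cornulin, and Sgpp2 (0.941). Elf3 was closest to Gm14005 (0.945) and Ier5 (0.943), Ets1 to Fam49a (0.935) and Bcar3 (0.926), and Ehf to Epb4.1l2 (0.896) and 1810011O10Rik (0.879). Etv5 was closest to Hsdl1 (0.916) and Cyb5r1 (0.878), Ets2 to Tnfrsf11a (0.872) and Antxr1 (0.865), Etv6 to Wwc1 (0.847) and Bend3 (0.845), and Etv4 to Cyb5d2 (0.826) and Dhrs9 (0.786).

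Open chromatin was compared as lists of ATAC peaks, 1 list per population with no replicate and hence no test. The lists held 54201 peaks for tumour, 56865 for wound, 55435 for HFSC and 25742 for EpdSC, from 29579794, 11140895, 26825550 and 13963471 fragments. Because the EpdSC list is the shortest, an absent peak may be one below its detection limit. Within the 9 gene bodies and 20 kb on each side lay 61 tumour, 59 wound, 50 HFSC and 27 EpdSC peaks. Of the tumour peaks 32, or 52.5%, overlapped no HFSC and no EpdSC peak, against 47.2% of the whole tumour list, and of the wound peaks 26, or 44.1%, against 39.4% of the wound list. The members as a group thus stood near the background of their lists.

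**Figure D4:**
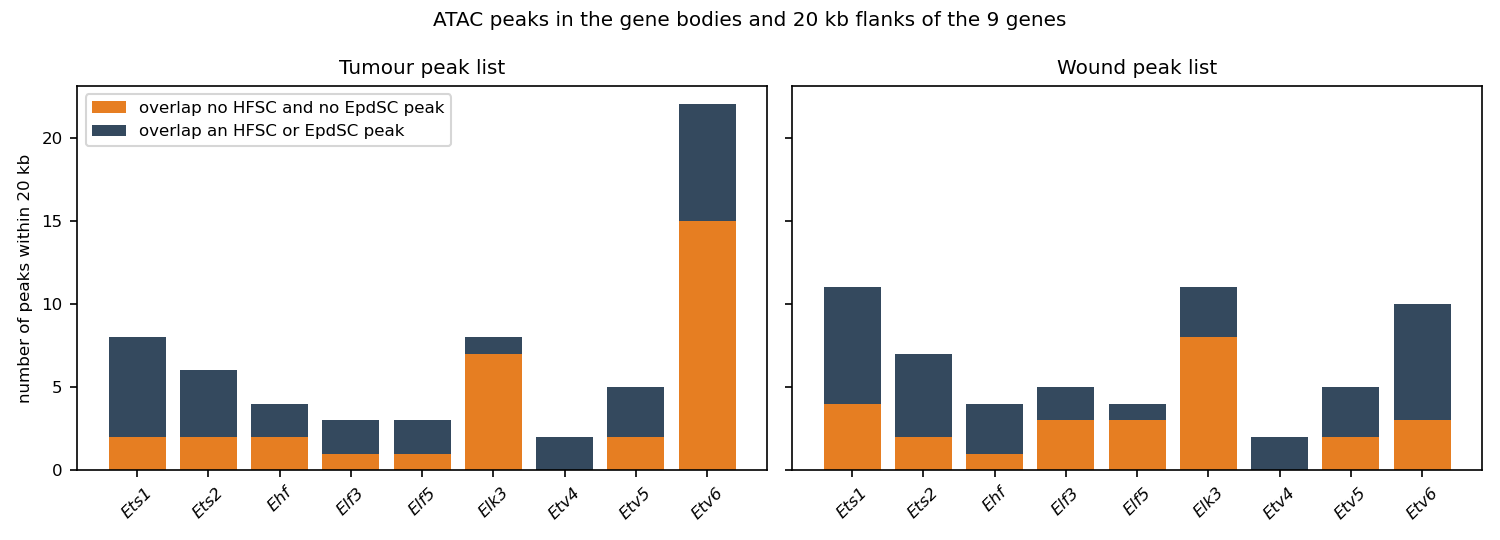
Number of tumour and wound ATAC peaks in each gene body and its 20 kb flanks, split by whether a peak overlaps any HFSC or EpdSC peak. Elk3 has 7 of 8 tumour peaks and 8 of 11 wound peaks without such an overlap, Etv6 has 15 of 22 tumour peaks, and Etv4 has none. Over the whole lists 47.2% of tumour and 39.4% of wound peaks lack one.

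Elk3 (chr10:93247415-93311159, GRCm38.p6) held most of the peaks shared by wound and tumour but absent from both unwounded lists. Of its 8 tumour peaks 7 overlapped no HFSC and no EpdSC peak, and 6 of these 7 overlapped a wound peak. At the other members that count was 1 for Ets2, Elf3, Etv5 and Etv6 and 0 for Ets1, Ehf, Elf5 and Etv4. All 6 lay in the gene body. The tumour peak nearest the start, with its summit 5094 bases downstream, had a fold enrichment of 6.28 over local background, and the wound peak there, at 5048 bases, one of 6.54, both as the authors' peak caller gave them.

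The other 5 tumour peaks shared with wound at Elk3 had summits 23314, 37997, 39030, 42564 and 45176 bases downstream, with fold enrichments of 6.98, 4.99, 2.82, 4.90 and 2.83. HFSC had 7 peaks at Elk3, among them the one over the start, and EpdSC 1. A wound peak had its summit 176 bases inside the start without covering it, and no tumour peak overlapped that wound peak. The neighbouring gene Cdk17 also reaches into this window.

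**Figure D5:**
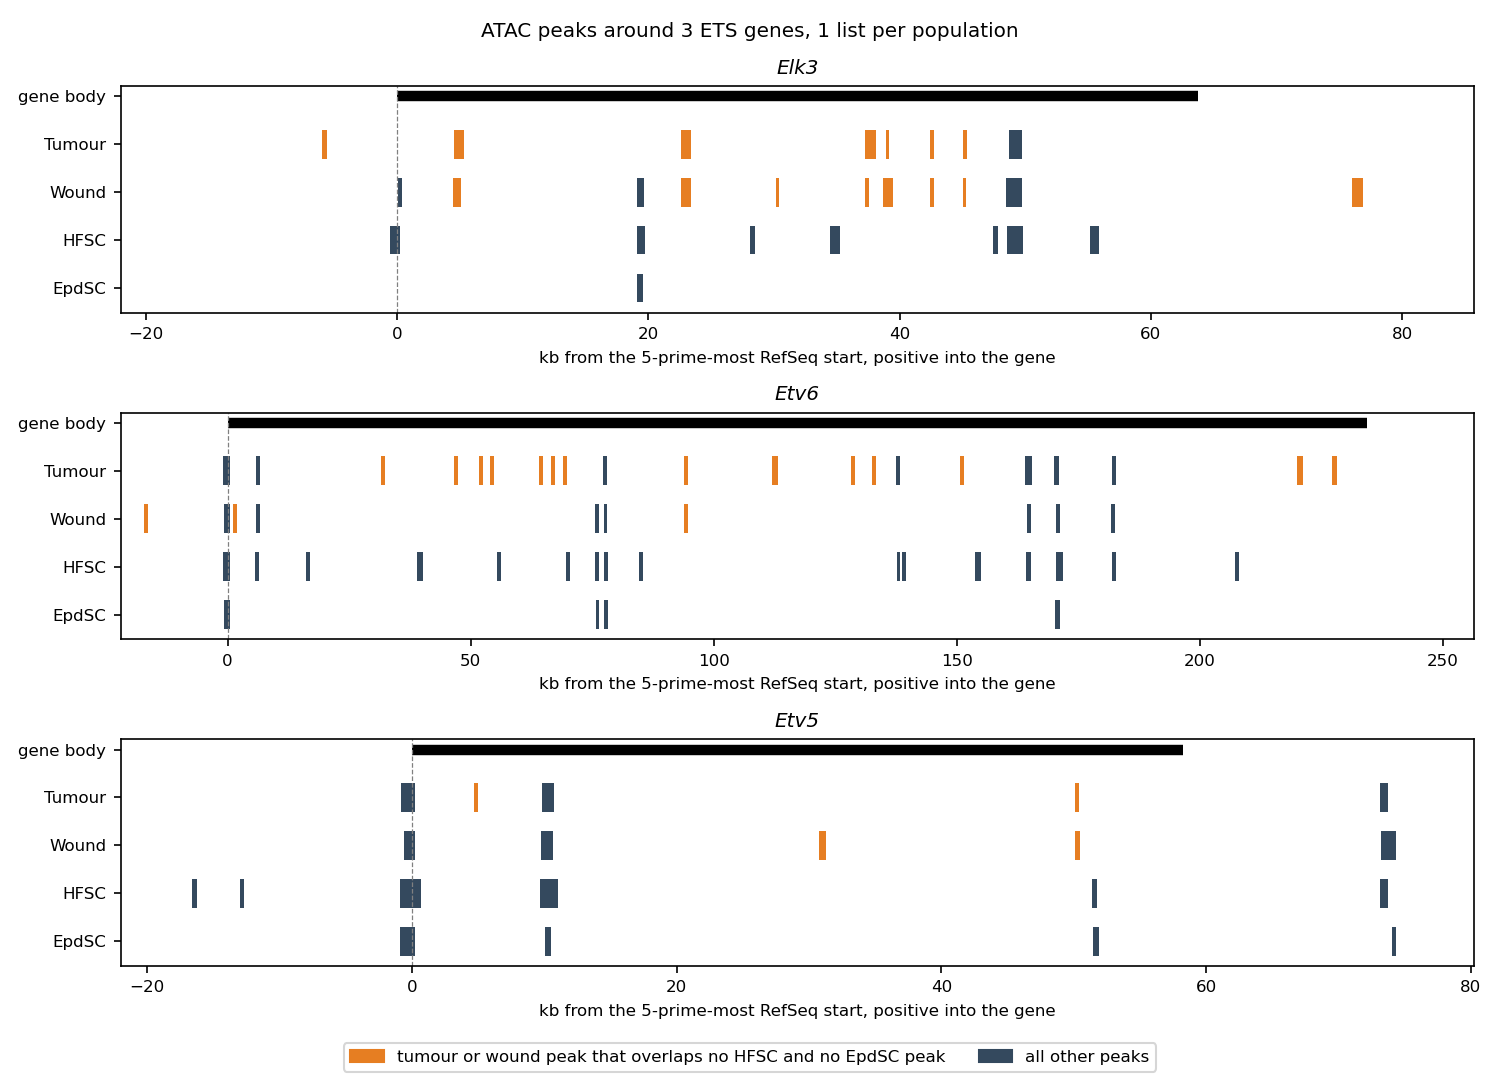
ATAC peaks of the 4 populations around Elk3, Etv6 and Etv5, by distance in kb from the most upstream RefSeq start, with the gene body in black. Peaks too narrow to see are drawn at a minimum width. Orange peaks overlap no HFSC and no EpdSC peak, and at Elk3 6 such tumour peaks line up with wound peaks, whereas at Etv6 1 does.

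Etv6 (chr6:134035700-134270158) spans 234459 bases and held 22 tumour, 10 wound, 16 HFSC and 4 EpdSC peaks. In the tumour list 15 of the 22 overlapped no HFSC and no EpdSC peak, against 47.2% of the whole list. Of the 15, 1 overlapped a wound peak, with its summit 94362 bases from the start and a fold enrichment of 14.8. In the wound list 3 of 10 were absent from both. These peaks were found at a gene whose transcript ranged 2.37 times over all libraries.

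Ets1 (chr9:32636241-32757820) had 8 tumour and 11 wound peaks, with 2 in HFSC and 7 in EpdSC, the only member with more EpdSC than HFSC peaks beside Ehf (3 and 4). The EpdSC list as a whole is the shorter of the 2. Of the wound peaks 4, and of the tumour peaks 2, overlapped no peak of either unwounded list, and 0 of the 2 overlapped a wound peak. Etv4 (chr11:101769747-101785310) had 2 tumour, 2 wound, 5 HFSC and 1 EpdSC peaks, and every tumour and wound peak overlapped an HFSC peak.

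Ets2 (chr16:95702407-95721049) had 6 tumour, 7 wound, 6 HFSC and 4 EpdSC peaks, of which 2 tumour and 2 wound peaks were absent from both unwounded lists. Etv5 (chr16:22381313-22439570) had 5, 5, 6 and 4, with 2 and 2 absent, and the tumour peak over its start had a fold enrichment of 11.5 and the HFSC peak there one of 12.6. Ehf (chr2:103263431-103303275) had 4 peaks each in tumour, wound and EpdSC and 3 in HFSC, with 2 tumour peaks and 1 wound peak absent. Elf3 (chr1:135253574-135258472) had 3, 5, 3 and 1, with 1 tumour peak and 3 wound peaks absent, and the tumour peak, with its summit at -9769 bases from the start, overlapped a wound peak. Elf5 (chr2:103412098-103450989) had 3, 4, 2 and 1, with 1 tumour peak and 3 wound peaks absent. At Elf5, where tumour RNA was higher than in skin, no peak of any list covered a listed start.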

How the data were processed

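The data comprise 21 RNA libraries and 4 pooled ATAC-seq samples. The authors deposited raw counts per gene symbol for 24061 genes, from reads aligned with STAR to mm10 per the submitters' processing notes, with library totals of 14216472 to 36425082 counts. A line of totals was kept out. Deposited counts per Ensembl ID for 47729 IDs, 98.9% matched to a symbol, served as an alternative, and 0 sample columns were left unmapped. Counts were scaled by TMM, filtered with filterByExpr and tested per set with edgeR 4.0.16 (quasi-likelihood F test, Benjamini-Hochberg adjustment over all genes tested, threshold 0.05) in R 4.3.3 with limma 3.58.1. Comparisons between tumours had genotype and gate in the model, with 1 library for each combination, so the gate comparison kept the genotype as a block. In comparisons with Tbr skin, gates, genotypes and lineages were pooled within a class and entered the spread. The labels do not say that replicates came from separate animals, so p-values measure the spread between these libraries, which may be technical. Replicate libraries differed by more than counting noise. Alternatives were DESeq2 1.42.0, upper-quartile scaling, no filter, leaving out each library, fitting only the libraries compared, a replicate block and the Ensembl counts. Where a library left out leaves 1 in a group, that library is assumed to vary like the other groups. The edgeR test was tried on simulated data for some of the comparisons, not including the difference of wound responses.

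ATAC peaks were called with MACS2 2.1.1.20160309 at a q cutoff of 0.05, on paired ends, without a control and with duplicates kept, per the file headers. Alignment used Bowtie and duplicates were handled with Picard, per the submitters' processing notes. The deposited lists give each peak's pileup signal, its fold enrichment ratio and the −log10 of its p-value and q-value, per the file headers. Peaks overlapping by at least 1 base were counted as shared, and coordinates are those of mm10 (GRCm38). Promoter windows came from RefSeq GRCm38.p6. Figures were drawn with Python 3.11.15 and matplotlib 3.10.9.

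The 9 members, the gene lists and the marker lists were chosen with earlier results of these data known. Genes of a list are named by a rule of at most 3 with the largest fold change in each direction among those called, and the likest genes by Pearson correlation over 21 libraries. Exon lengths were not used here, so levels are not compared between genes.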

Additional observations from a re-analysis of the deposited data

Results flagged for a closer look

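The wound responses of 2 members differed between the lineages of CL in a test of the difference itself. For Ets1 the log2 response of the HFSC lineage exceeded that of EpdSC by 2.26 (± 0.57 SE, edgeR adjusted p = 0.0371), and for Etv4 the difference was -3.71 (± 0.58, adjusted p = 0.00619). The Ets1 response was 2.16 in the HFSC lineage and -0.10 in EpdSC, and that of Etv4 was -1.01 and 2.70. Over 13 alternatives the Ets1 difference ranged from 1.75 to 3.00, with adjusted p of up to 0.122, and that of Etv4 from -4.20 to -2.91, with adjusted p of up to 0.0443.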

How the results depend on the processing

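Counts of members called out of 9 depended mainly on single libraries. Leaving out 1 library at a time gave 0 to 3 for HFSC over EpdSC in CL (2 with all libraries), 2 to 6 in BK (4), 0 to 2 for the wounded HFSC lineage over wounded EpdSC (1), 1 to 5 for the difference of wound responses (2), 5 to 7 for the BK wound (1, and 1 library against 1 in those fits), 0 to 2 for the gate (0), 4 to 8 for TbrKO over HRas-bearing tumours (5) and 4 to 6 for TbrKO over Tbr skin (7). DESeq2 called 3 for the BK wound, 2 for the gate and 1 for HRas TbrKO over HRas tumours (0 with edgeR). No filter on low counts gave 2 for the BK wound, and fitting only the 4 libraries compared gave 0 for the wounded groups. The cause was not tested. Both reversed values come from leaving out 1 library, Etv4 in the BK wound without EpdSC 1 (0.83, against -1.05 without EpdSC 2) and Elf3 in TbrKO over HRas-bearing tumours without the low TbrKO library (-0.57, against 0.94 without the high one).

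Over all genes, edgeR calls ranged with 1 library left out from 505 to 1072 (1605 with all) for HFSC over EpdSC in CL, 1260 to 6486 (2108) in BK, 4064 to 5006 (6835) for the wounded HFSC lineage over HFSC, 5735 to 9382 (8663) for wounded EpdSC in CL, 541 to 7460 (2847) for the wounded groups, 789 to 6499 (2339) for the difference, 6635 to 6848 (1169) for the BK wound, 0 to 3312 (446) for the gate, 2465 to 7040 (6110) for TbrKO over HRas-bearing tumours and 1283 to 3407 (3789) for TbrKO over Tbr skin. DESeq2 called 5527 for the wounded groups, 4053 for the difference, 3410 for the BK wound, 1633 for the gate and 397 for HRas TbrKO over HRas tumours. No filter gave 2131 for the BK wound, and only the 4 libraries compared gave 2502 for HFSC over EpdSC in CL and 1037 for the wounded groups. The share of calls that were higher went to 20.9% with upper-quartile scaling from 33.7% for the difference, and with DESeq2 to 46.8% from 35.4% for the wounded groups, 37.3% from 22.2% for the BK wound and 19% from 4% for the gate. Upper-quartile scaling shifted the median log2 fold change of all genes to -0.34 from -0.06 for the difference and to 0.13 from -0.04 for wounded EpdSC in CL.

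The 2 wounded groups of CL deviated together by library letter (r = 0.46), whereas the other pairs of groups did not (r of -0.18 to 0.04 in CL and -0.22 in BK), and the labels do not tie the letters to shared animals, so the numbers were not taken to pair the samples. With the replicate block the members called were 2, 4, 4, 1 and 2 in the 5 CL comparisons and 4 in BK, and all genes called were 1470, 6451, 8487, 2083 and 1966 in CL and 2478 in BK. A crossed pairing in BK, chosen after seeing the data, called 3627 genes and 4 members. Without the genotype block, the gate called 0 genes with edgeR, with 1119 at an unadjusted p under 0.05.

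The 58 tumour and wound peaks absent from both unwounded lists became 37 at a −log10 q of at least 10 and 17 within 20 kb of a listed start, for the 6 members with one, which held 49 of the 58. At Elk3 15 became 12 and at Etv6 18 became 11 at the stricter q, and 3 and 2 lay within 20 kb of the start, fewer than at Ets2 and Elf5 with 4 each. Levels near 0 limit Elf5, whose lowest value rests on 3 counts.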
